A study of Mus musculus with 14 samples.

Results

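The genes described here are 10 epithelial junction and keratin genes: the cadherins Cdh1 and Cdh16, the adhesion molecule Epcam, the splicing regulator Esrp1, the claudins Cldn3, Cldn7 and Cldn8, and the keratins Krt8, Krt18 and Krt19. They were taken by gene symbol from the deposited count table, which holds 55487 genes, and all 10 were found and passed the filter on low counts. RNA was sequenced from GFP-positive cells sorted from embryonic mouse kidneys at stage E13.5. Hoxb7-Cre, a transgene active in the ureteric bud and its derivatives, carries the GFP and deletes the floxed alleles there, so non-ureteric kidney cells were neither targeted nor sorted by design. There were 5 libraries labelled Cep120 KO (numbers 2, 4, 5, 6 and 7), 3 controls from the Cep120 cross, and 3 Pkd1 KO libraries with 3 controls from the Pkd1 cross; these crosses are called lines below. Titles name the KO libraries hoxcep120homo and hoxpkd1homo and the controls hoxcep120het and hoxpkd1het, while the genotype label of all 6 controls is WT. Whether the controls carry 1 deleted allele is therefore not settled by the labels, and neither the number of embryos pooled per library nor their litters is given, so p-values measure the spread between libraries, which may be technical.

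The ureteric bud is an epithelial tube that branches into the kidney mesenchyme and becomes the collecting duct system. Its cells hold together through adherens junctions built on E-cadherin, seal their borders with claudin strands, and carry an intermediate filament network in which the type II keratin Krt8 pairs with the type I keratins Krt18 and Krt19. Esrp1 sets splicing choices typical of epithelial cells. Loss of these genes together with gain of mesenchymal genes is a textbook description of epithelial-to-mesenchymal transition, and in the kidney the reverse change accompanies the conversion of mesenchymal nephron progenitors into tubules.

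Total counts ran from 11347657 to 27967596 per library. Of the Cep120 KO label, library 2 lay near the controls over most genes described here, libraries 4 and 5 were nearly alike, and libraries 6 and 7 stood apart from all others; libraries 4 and 5 differed by 4.55 times sampling noise (chi-square per degree of freedom), beside 12.6 to 295 times for the 18 other pairs of libraries within a group. Whether they share material is not given by the labels. They were kept as 5 libraries in all, and the counts with libraries 4 and 5 summed into 1 are given with the results. Cep120 itself was not lower under its KO label (log2 fold change 0.83, SE 0.31, adjusted p = 0.0832), so the group is called by its label throughout, and Pkd1 was lower in the Pkd1 KO libraries without overlap but did not pass the test (log2 fold change -0.65, SE 0.43, adjusted p = 1). The 14 ureteric bud markers summed to between 2760 and 3300 CPM in the 9 libraries outside the Cep120 KO label. CPM is a gene's count relative to its library's total, scaled here by TMM, a correction for library composition. Ureteric bud markers were thus detected in each library, with sums of 1080 and 1620 CPM in libraries 6 and 7 and of 3137, 2348 and 2501 CPM in libraries 2, 4 and 5. A single gene, Calb1, made up much of these sums (1580 to 1788 CPM in the Cep120-line controls and 1848, 874, 942, 400 and 696 CPM in libraries 2, 4, 5, 6 and 7). Without it the other markers summed to 1181 to 1228 CPM in those controls, 1288, 1475 and 1558 CPM in libraries 2, 4 and 5, and 680 and 924 CPM in libraries 6 and 7, so libraries 4 and 5 then lay above the controls.

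Levels of different genes can be set side by side only per length, in the deposited TPM, an abundance corrected for transcript length. In the 3 Cep120-line controls, Krt18 (397 ± 11.7 TPM, SD, n = 3), Cldn7 (379 ± 69.8 TPM, SD, n = 3) and Cldn3 (363 ± 51.2 TPM, SD, n = 3) were the most abundant, and their ranges overlapped. Cldn8 (184 ± 35.2 TPM, SD, n = 3) and Krt8 (156 ± 7.03 TPM, SD, n = 3) followed, below the first 3 genes and overlapping each other. Epcam (84.0 ± 15.4 TPM, SD, n = 3) overlapped Cdh16 (61.8 ± 14.2 TPM, SD, n = 3), and both lay above Krt19, Cdh1 and Esrp1. The last 3 genes were at 27.1 ± 7.12, 25.6 ± 5.12 and 20.9 ± 3.54 TPM (SD, n = 3), with overlapping ranges. In the Pkd1-line controls the same 3 genes led, and Epcam stood higher, at 165 ± 18.8 TPM (SD, n = 3), where it overlapped Krt8 at 174 ± 7.93 TPM (SD, n = 3). The 2 type I keratins together exceeded Krt8 by 2.34 to 2.89 times in TPM in every library except 6 and 7, where the ratio was 1.96 and 1.84.

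The first comparison set the Cep120 KO label against its own controls, the contrast that the series' design text describes. None of the 10 genes changed by edgeR's quasi-likelihood test, against 14.7% of the 16876 genes tested (8.4% higher and 6.26% lower), and 0 of the 10 had groups that did not overlap, against 15.2% of all genes. The smallest adjusted p of the 10 was 0.235, for Cldn7. The 10 fold changes ran from -0.63 (Cldn7) to 0.61 (Cdh16) on the log2 scale, with 5 above and 5 below 0 and a median of -0.01, beside a median of 0.12 over all genes. These averages covered libraries that lay on opposite sides of the controls. With libraries 4 and 5 summed into 1, 0 of the 10 changed. Without libraries 6 and 7, 1 passed the test, Epcam, and without libraries 4 and 5, 2 did so, Cdh16 (log2 -1.01) and Krt18 (log2 -0.67). The libraries left out were those with the lowest Epcam and those with the highest Cdh16 and Krt18, so these directions follow from which libraries were left out and are no separate support. limma-voom, which weights down libraries far from their group's fit, called 6 of the 10, all higher. The counts from these other fits are given without the share of all genes called in the same fit. They therefore do not set the 10 genes apart from other genes. With the 3 Cep120-line controls averaged as the reference, the median of the 10 genes was -0.15 in library 2, 0.49 in library 4, 0.56 in library 5, -1.68 in library 6 and -1.07 in library 7 on the log2 CPM scale. In the 9 other libraries the same median stayed between -0.13 and 0.14.

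**Figure D1:**
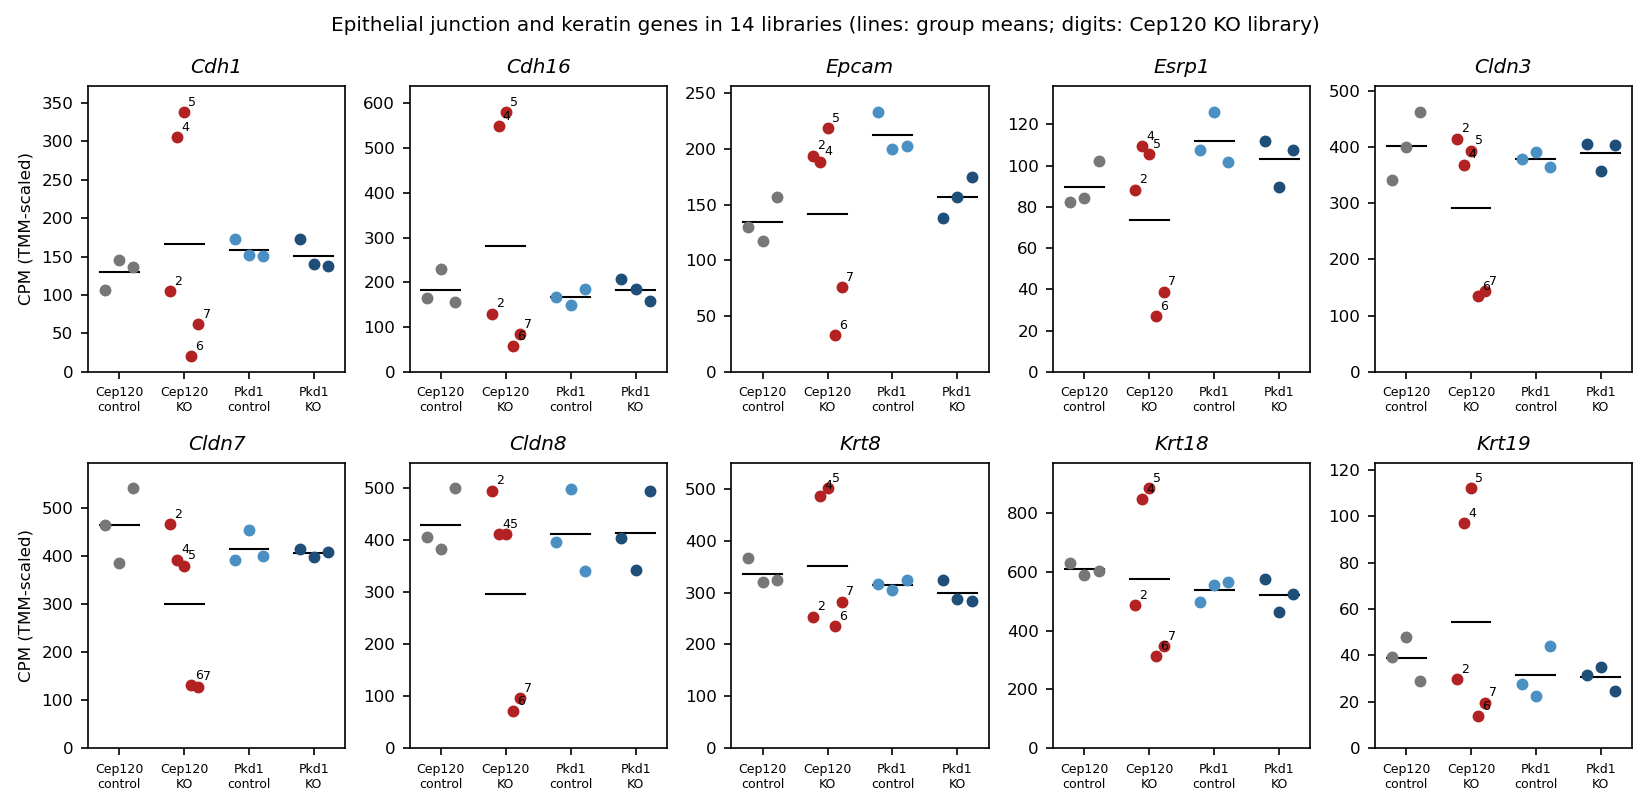
TMM-scaled CPM (linear axis from 0) of each of the 10 genes in 14 libraries, by group; each point is a library, black lines are group means and digits name the libraries labelled Cep120 KO. Libraries 4 and 5 lie above every control for Cdh1, Cdh16, Krt8, Krt18 and Krt19, libraries 6 and 7 lie below every control of their line for all 10 genes, and the Pkd1 groups overlap for all genes but Epcam.

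Cdh1 encodes E-cadherin, the calcium-dependent adhesion receptor of epithelial adherens junctions (chromosome 8, 106603351 to 106670246, GRCm38). It stood at 107, 146 and 136 CPM in the Cep120-line controls and at 105, 305, 338, 20.2 and 61.9 CPM in libraries 2, 4, 5, 6 and 7. Libraries 4 and 5 were above every other library and libraries 6 and 7 below every other library, while library 2 lay just under its lowest control. The fitted change was 0.36 on the log2 scale (SE 0.62, 95% interval -0.97 to 1.68, adjusted p = 0.721), so the interval allowed for both a large rise and a large fall. Cdh16, also called Ksp-cadherin, is a kidney-specific cadherin of tubular epithelia that lies on the same chromosome (104601911 to 104624396). It stood at 165, 230 and 156 CPM in the controls and at 130, 549, 581, 57.6 and 84.9 CPM in libraries 2, 4, 5, 6 and 7. The 5 libraries came in the same order as for Cdh1, with library 2 again below the controls and above libraries 6 and 7. Its fitted change was the highest of the 10 (log2 0.61, SE 0.62, 95% interval -0.71 to 1.93, adjusted p = 0.516). The count ratio of Cdh16 to Cdh1 was 2.86 in library 6 and between 0.968 and 1.80 in the other 13, so in library 6 Cdh1 was the lower of the pair relative to the rest.

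Epcam encodes a surface glycoprotein of simple epithelia that takes part in cell adhesion and stabilises claudins (chromosome 17, 87635979 to 87651129). It stood at 130, 117 and 156 CPM in the Cep120-line controls and at 194, 188, 218, 32.8 and 76.0 CPM in libraries 2, 4, 5, 6 and 7. Libraries 2, 4 and 5 all lay above the 3 controls for Epcam, which in TMM-scaled CPM held for no other gene of the 10 and in CPM without TMM and in TPM held for Cldn8 too. Over all 5 libraries the fitted change was 0.08 (log2, SE 0.43, adjusted p = 0.917). Without libraries 6 and 7, where Epcam was lowest, it was 0.57. Esrp1, the splicing regulator, stood at 82.3, 84.4 and 102 CPM in the controls and at 88.4, 109, 106, 27.0 and 38.8 CPM in libraries 2, 4, 5, 6 and 7. Libraries 2, 4 and 5 were within or just above the control range and libraries 6 and 7 far below it. Its fitted change was -0.28 (log2, SE 0.36, adjusted p = 0.622).

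The claudins are the strand-forming proteins of tight junctions. Cldn3 and Cldn7 are sealing claudins of many epithelia, and Cldn8 is known in the collecting duct for a barrier to cations. Cldn8 stood at 405, 383 and 499 CPM in the Cep120-line controls and at 495, 411, 411, 71.1 and 96.4 CPM in libraries 2, 4, 5, 6 and 7. In TMM-scaled CPM it lay inside the control range in libraries 2, 4 and 5, and in CPM without TMM and in TPM above that range in all 3. Libraries 6 and 7 were 2.58 and 2.14 below the control mean on the log2 scale, the lowest and the second lowest of all 14. Cldn7 stood at 463, 386 and 540 CPM in the controls and at 465, 392, 379, 131 and 128 CPM in libraries 2, 4, 5, 6 and 7. Cldn3 stood at 342, 400 and 462 CPM in the controls and at 415, 368, 393, 135 and 144 CPM in those libraries. On the TMM scale both repeated the pattern of Cldn8, with library 5 for Cldn7 just below the lowest control. The fitted changes were -0.53 for Cldn8 (SE 0.49, adjusted p = 0.473), -0.63 for Cldn7 (SE 0.36, adjusted p = 0.235) and -0.46 for Cldn3 (SE 0.33, adjusted p = 0.339) on the log2 scale.

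Over the 14 libraries, Cldn3 and Cldn7 were each other's most similar gene among the 10, with a root mean square difference of 0.147 between their log2 CPM after each gene was centred on its mean. Their count ratio stayed between 0.737 and 1.12 in all 14 libraries. Their RefSeq promoter windows (GRCm38.p6, 250 bases before to 50 after the start) are shown because the pair varied together. Capitals mark CAGGTG on either strand, the E-box core that Snail and Zeb repressors of epithelial genes are known to bind. The Cldn3 window is chr5:134985964-134986263 (plus strand) and the Cldn7 window is chr11:69965171-69965470 (plus strand), the second of 2 Cldn7 starts in the table.
Cldn3: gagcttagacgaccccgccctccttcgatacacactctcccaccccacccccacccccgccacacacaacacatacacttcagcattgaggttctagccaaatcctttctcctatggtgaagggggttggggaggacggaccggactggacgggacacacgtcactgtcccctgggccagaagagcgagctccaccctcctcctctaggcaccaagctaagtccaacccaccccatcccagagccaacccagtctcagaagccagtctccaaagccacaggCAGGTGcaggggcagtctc
Cldn7: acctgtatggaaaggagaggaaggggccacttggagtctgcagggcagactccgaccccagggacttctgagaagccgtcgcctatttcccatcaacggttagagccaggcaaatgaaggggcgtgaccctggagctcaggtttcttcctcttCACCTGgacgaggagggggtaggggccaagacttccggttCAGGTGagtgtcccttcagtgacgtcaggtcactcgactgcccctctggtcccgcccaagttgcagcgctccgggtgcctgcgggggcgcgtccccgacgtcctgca
The Cldn3 window held 1 match and this Cldn7 window 2, while the other Cldn7 window held none.

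Krt8 (chromosome 15, 101996698 to 102004482) is the type II keratin of simple epithelia, and its type I partner Krt18 is its neighbour on the same chromosome (102028180 to 102032027). Krt8 stood at 366, 319 and 324 CPM in the Cep120-line controls and at 254, 486, 500, 236 and 282 CPM in libraries 2, 4, 5, 6 and 7. Krt18 stood at 630, 589 and 604 CPM in the controls and at 486, 847, 883, 312 and 347 CPM in those libraries. For both genes libraries 4 and 5 were above all other libraries, and libraries 2, 6 and 7 were below the controls of the line. Krt8 spread least of the 10: its lowest value, in library 6, was only 0.51 below the control mean on the log2 scale. The fitted changes were 0.06 for Krt8 (log2, SE 0.24, 95% interval -0.45 to 0.58, adjusted p = 0.875) and -0.08 for Krt18 (log2, SE 0.30, 95% interval -0.72 to 0.56, adjusted p = 0.875). Krt19, a type I keratin of ductal epithelia, varied more between libraries than Krt8 or Krt18. It stood at 39.5, 48.1 and 28.8 CPM in the controls and at 29.8, 97.1, 112, 13.8 and 19.7 CPM in libraries 2, 4, 5, 6 and 7. Its pattern was that of the cadherins rather than of Krt18, with a log2 difference from the control mean of 1.35 and 1.56 in libraries 4 and 5. Its fitted change was 0.49 (log2, SE 0.57, adjusted p = 0.581).

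Krt8 and Krt18 were likewise each other's most similar gene among the 10 (root mean square difference 0.182). Their promoter windows are chr15:102004293-102004592 (minus strand) for Krt8 and chr15:102027966-102028265 (plus strand) for Krt18, so the genes are transcribed away from each other. The windows are shown, with the same capitals, because each gene was the other's closest among the 10. Both genes spread little (SD of log2 CPM 0.306 for Krt8 and 0.407 for Krt18), which keeps the difference between them small.
Krt8: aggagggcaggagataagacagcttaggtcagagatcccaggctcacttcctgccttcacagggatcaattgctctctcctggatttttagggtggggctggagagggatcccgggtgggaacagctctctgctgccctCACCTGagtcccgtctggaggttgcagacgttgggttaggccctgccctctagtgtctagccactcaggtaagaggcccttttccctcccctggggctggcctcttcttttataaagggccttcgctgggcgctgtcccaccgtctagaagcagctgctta
Krt18: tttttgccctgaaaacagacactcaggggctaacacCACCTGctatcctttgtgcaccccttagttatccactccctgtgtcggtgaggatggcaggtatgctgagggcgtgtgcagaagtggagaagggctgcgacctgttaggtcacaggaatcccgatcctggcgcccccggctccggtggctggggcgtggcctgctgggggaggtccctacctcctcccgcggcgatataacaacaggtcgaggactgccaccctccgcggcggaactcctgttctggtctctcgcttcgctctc
Each window held 1 match to CAGGTG. Epcam, the only other gene of the 10 in the promoter table, had 2 matches. By window, the motif was thus in all 6 windows of these 5 genes but 1, a Cldn7 window. Of the 32851 windows of this length in the table, 20.2% held it. TATAAA, the TATA box core, matched in Krt8 alone (2 overlapping matches, 1 on each strand), beside 13.6% of all windows. GGGCGG, the GC box, matched in Cldn3, Epcam and 1 Cldn7 window, beside 35.7% of all windows. AACCNGTT, the Grainyhead-like motif, matched in none of the 6 windows, beside 2.09% of all windows. These are letter matches only.

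**Figure D2:**
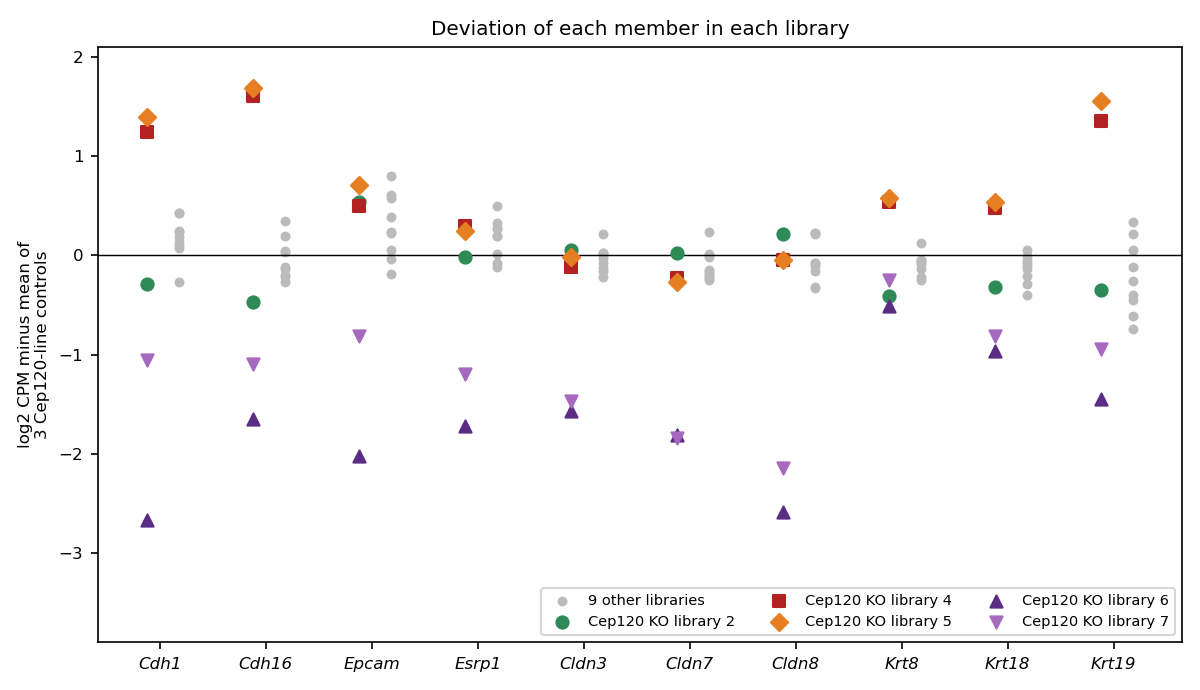
Log2 CPM minus its average over the 3 Cep120-line controls (vertical axis) for each of the 10 genes (horizontal axis); coloured symbols are the 5 libraries labelled Cep120 KO and grey points the 9 other libraries. Libraries 4 and 5 are raised for Cdh1, Cdh16 and Krt19 by 1.25 to 1.68 and near 0 for the 3 claudins, whereas library 6 is lowest for Cdh1 and Cldn8 and library 7 for Cldn8 and Cldn7, and both are closest to the controls for Krt8.

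Ratios of counts within a library do not depend on how libraries are scaled. The ratio of Cdh16 to Cldn8 was 0.407, 0.600 and 0.313 in the Cep120-line controls, 0.264 in library 2, 1.34 and 1.41 in libraries 4 and 5, and 0.810 and 0.880 in libraries 6 and 7. All 4 libraries from 4 to 7 thus had more Cdh16 per Cldn8 count than any other library, the first pair with Cdh16 raised and the second with both genes low. Krt8 to Cldn8 was 0.904, 0.834 and 0.651 in the controls, 0.513 in library 2, 1.18 and 1.22 in libraries 4 and 5, and 3.32 and 2.93 in libraries 6 and 7. The last pair was the highest of the 14. Krt19 to Krt18 was 0.115 and 0.127 in libraries 4 and 5 and between 0.0411 and 0.0816 elsewhere. Krt8 to Krt18 was 0.756 and 0.815 in libraries 6 and 7 and between 0.522 and 0.638 elsewhere. In the Pkd1 line these 4 ratios overlapped between KO and control libraries.

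**Figure D3:**
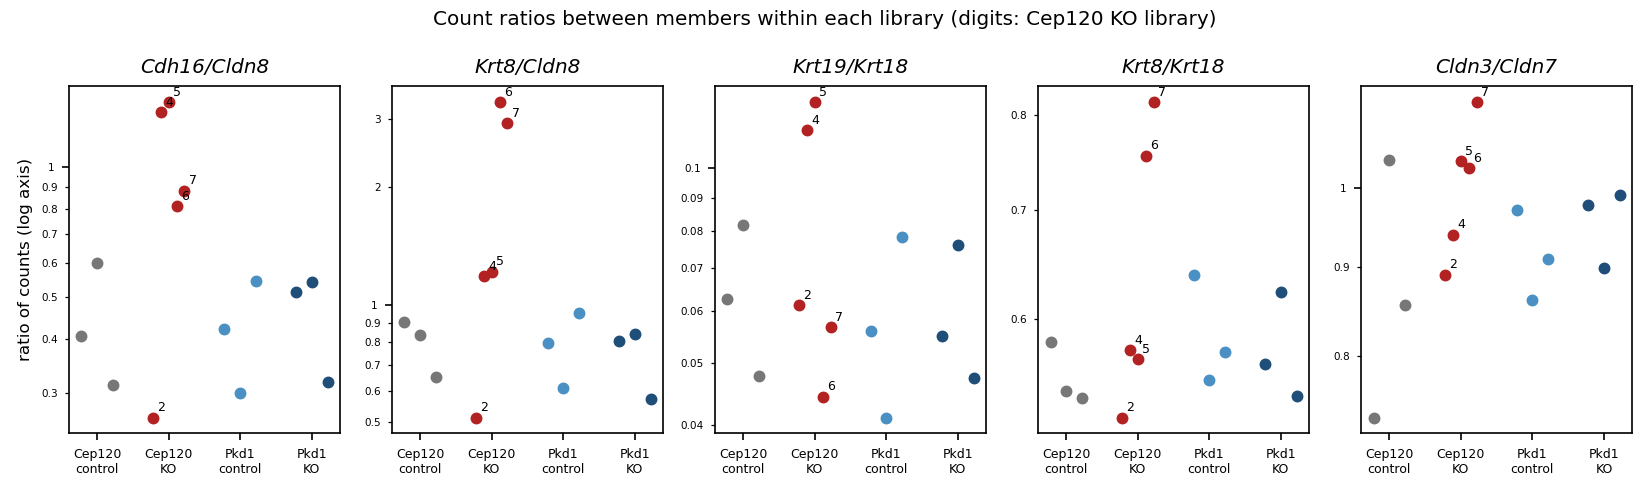
Ratio of estimated counts of 5 pairs of genes within each library (log axes), by group, with digits naming the libraries labelled Cep120 KO. Cdh16 to Cldn8 is highest in libraries 4 to 7 (0.810 to 1.41) and Krt8 to Cldn8 in libraries 6 and 7 (2.93 and 3.32), while Cldn3 to Cldn7 stays between 0.737 and 1.12.

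Directions in libraries 4 to 7 depended in part on the scale. In TMM-scaled CPM, 10 of 10 genes lay below the control range in both libraries 6 and 7, and 7 of 10 above it in both libraries 4 and 5. In CPM without TMM, 9 of 10 lay below in library 6 and 8 of 10 in library 7, and 9 of 10 above in libraries 4 and 5. In the deposited TPM, 9 of 10 lay below in library 6 but only 4 of 10 in library 7, and 10 of 10 above in libraries 4 and 5, claudins included. In libraries 6 and 7, Krt8 was the gene that turned: it was 186 and 234 TPM there, above the 149 to 163 TPM of the controls, though below them in TMM-scaled CPM. In library 5, Cldn7 turned, from just below the controls in TMM-scaled CPM (379 CPM) to above them in TPM (532 TPM). The claudins in libraries 6 and 7 lay below the controls on all 3 scales. Libraries 4 to 7 also shared a raised level of long transcripts: with the same reference, the mean log2 difference was 0.64 to 0.90 larger for the longest 10% of genes than for the shortest 10% in these 4 libraries, and -0.22 to 0.27 larger in the other 10. Its part in the values above was not tested. In a fit with length and GC content as offsets 0 of the 10 genes changed, as in the main fit. That fit compares group means, so it cannot show this part in single libraries.

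Markers of other kidney cells moved with libraries 6 and 7. The 9 nephron progenitor markers summed to 843 and 652 CPM there and to 33.8 to 70.1 CPM in the 12 other libraries. Six2, the transcription factor that defines nephron progenitors, was at 127 and 86.1 CPM in libraries 6 and 7 and at 0 to 1.53 CPM elsewhere. Eya1, Meox1, Crym, Itga8, Osr1 and Meis3 were likewise highest in libraries 6 and 7. Cited1 was not raised, at 50.8 and 33.2 CPM beside 35.4 to 55.5 CPM in the Cep120-line controls. Tmem100 was near those controls, at 8.49 and 9.55 CPM beside 6.11 to 9.51 CPM. Of these 9 markers, 2 rose in the Cep120 KO contrast, Meis3 and Six2 (log2 5.98, SE 1.82, adjusted p = 0.0437). The 10 stromal markers summed to 123 and 158 CPM in libraries 6 and 7 and to 3.32 to 76.4 CPM elsewhere, and 0 changed. Meis1 made up 63.9 and 55.5 CPM of these sums and Col1a1 16.5 and 56.8 CPM. Meis1, Foxd1, Col1a2 and Col3a1 were highest in libraries 6 and 7, and Col1a1 in library 7 alone. Pdgfra, Pdgfrb, Lum, Dcn and Tbx18 lay within the range of the other libraries in both libraries 6 and 7. The 9 nascent nephron markers summed to 573 and 476 CPM there and to 250 to 477 CPM elsewhere. This sum mixed directions: Wt1, Cdh6, Fgf8, Wnt4 and Pax8 were highest in libraries 6 and 7, and Jag1 and Nphs1 lowest. Wt1 was at 92.2 and 62.2 CPM there and 0 to 1.90 CPM elsewhere, and Jag1 at 11.8 and 9.42 CPM beside 36.5 to 227 CPM. Of 8 nascent nephron markers tested, 2 rose (Wnt4 and Ccnd1) and 1 fell (Nphs1). Of the 14 ureteric bud markers, 9 lay below all 3 Cep120-line controls in library 6 and 8 in library 7, while 1 and 5 lay above them, and 0 of 14 changed in the contrast. Hoxb7, whose promoter drives the Cre, was inside the control range in both libraries, at 77.4 and 91.3 CPM beside 69.7 to 93.6 CPM. Over the same libraries the 10 junction and keratin genes summed to 1036 and 1279 CPM, beside 3754 and 3922 CPM in libraries 4 and 5 and 2456 to 3007 CPM in the 10 others. In bulk samples, fewer cells of a type and less RNA per cell cannot be told apart. The part of other cell types in the low values of libraries 6 and 7 was not tested. In libraries 2, 4 and 5 the nephron progenitor sum was 38.6, 38.6 and 33.8 CPM, below every Cep120-line control, and it was 35.3 to 46.9 CPM in the Pkd1-line controls. Cited1 alone was at 23.5, 28.1 and 23.9 CPM in libraries 2, 4 and 5, and Six2 was not below the Cep120-line controls there. Blood markers were spread otherwise: the 10 leukocyte markers summed to 21.6 to 36.7 CPM under the Cep120 KO label and 86.9 to 379 CPM in its controls, with 4 that fell (Tyrobp, Fcer1g, Pf4 and Coro1a), and the 7 erythroid markers to 5.24 to 1088 and 492 to 7166 CPM, with 0 changed; the 8 endothelial markers summed to 0.459 to 62.5 and 5.81 to 24.7 CPM, with 0 changed.

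**Figure D4:**
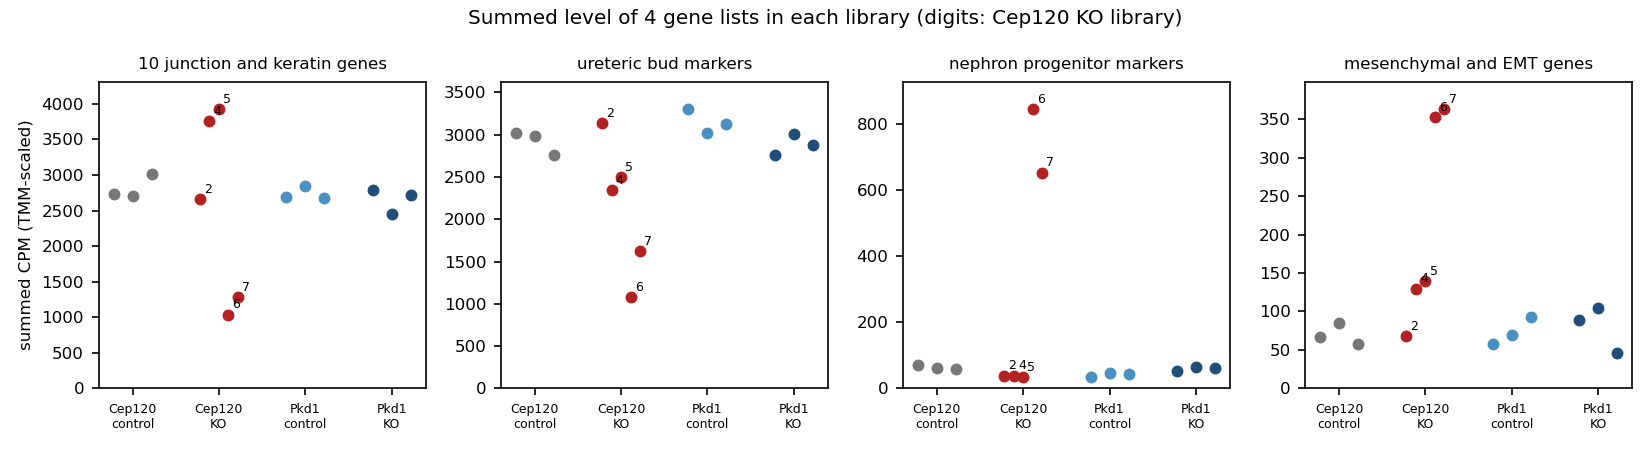
Summed TMM-scaled CPM (linear axes from 0) of the 10 junction and keratin genes, the ureteric bud markers, the nephron progenitor markers and the mesenchymal and EMT genes in each library, by group, with digits naming the libraries labelled Cep120 KO. Libraries 6 and 7 have the lowest sums of the first 2 lists (1036 and 1279 CPM for the 10 genes) and the highest of the last 2 (843 and 652 CPM for nephron progenitor markers).

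The genes that work beside the 10 were followed in 7 lists. Among 12 adherens junction partners, 2 rose and 0 fell under the Cep120 KO label (list median 0.31 on the log2 scale): Afdn, which encodes afadin and links nectins to actin, and Nectin2, a cell adhesion receptor. Afdn stood at 9.46, 11.5 and 8.47 CPM in the controls and at 10.6, 27.0, 28.9, 29.2 and 32.1 CPM in libraries 2, 4, 5, 6 and 7 (log2 1.38, SE 0.37, adjusted p = 0.0322). Libraries 4 to 7 were alike for Afdn, in contrast to Cdh1. Nectin2 stood at 63.8, 57.7 and 64.5 CPM in the controls and at 70.7, 77.8, 89.8, 165 and 180 CPM in those libraries, with no overlap (log2 0.91, SE 0.29, adjusted p = 0.0479). It was highest in libraries 6 and 7, where Cdh1 was lowest. For Nectin2, libraries 2 and 4 lay inside the range of the Pkd1-line controls (75.6, 79.1 and 63.6 CPM).

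Among 14 tight junction partners, 2 rose and 0 fell (list median 0.55). Cgnl1, which encodes the junctional scaffold paracingulin, was at 2.39 to 3.20 CPM in the controls, 1.38 CPM in library 2 and 16.4 to 29.9 CPM in libraries 4 to 7 (log2 2.64, SE 0.67, adjusted p = 0.0312). Pals1, a polarity scaffold listed in the table as Mpp5, was at 14.4 to 16.9 CPM in the controls, 16.5 CPM in library 2 and 22.9 to 35.6 CPM in libraries 4 to 7 (log2 0.79, SE 0.24, adjusted p = 0.0434). Libraries 4 to 7 exceeded the Cep120-line controls for both genes and library 2 did not exceed them for either. For Pals1, libraries 4 and 5 lay inside the range of the Pkd1-line controls (18.9 to 24.0 CPM). Among 11 other claudins, 0 rose and 1 fell (list median -0.58): Cldn9 was at 168, 153 and 149 CPM in the controls and at 102, 88.5, 86.3, 135 and 113 CPM in libraries 2, 4, 5, 6 and 7, with no overlap (log2 -0.58, SE 0.15, adjusted p = 0.0323). The Pkd1-line controls, at 103, 116 and 108 CPM, lay inside the range of these 5 libraries, so the position of Cldn9 depended on the line. Cldn1 and Cldn19, named after their values were seen, also lay below all 3 Cep120-line controls in each of the 5 libraries. Neither passed the test (adjusted p = 0.0653 and 0.0688). Both overlapped the Pkd1-line controls: Cldn19 was at 6.27 to 6.68 CPM there and 1.04 to 8.09 CPM under the KO label. Cldn1 was at 3.61 to 7.09 CPM there and 0.322 to 3.80 CPM under the KO label. Among 9 desmosome genes, 2 rose and 0 fell (list median 0.58): Evpl and Ppl, the plakin linkers envoplakin and periplakin. Both were scarce, Evpl at 0 to 0.0587 CPM in the controls and 0.131 to 5.23 CPM under the KO label (adjusted p = 0.0299), and Ppl at 0.307 to 0.764 CPM in the controls and 0.131 to 10.4 CPM under the KO label (adjusted p = 0.0380). The lowest value of both genes under the KO label was that of library 2. The Pkd1-line controls were at 0.137 to 1.17 CPM for Evpl, above library 2 (0.131 CPM) and below libraries 4 to 7.

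Of 9 other keratins 4 were tested and 0 changed; Krt7, with the smallest p, was at 52.9 to 76.5 CPM in the controls, 43.0 CPM in library 2, 166 and 162 CPM in libraries 4 and 5 and 57.2 and 60.8 CPM in libraries 6 and 7 (log2 0.56, SE 0.40, adjusted p = 0.343). Krt7 was thus high in the libraries in which Krt19 was high. Of 14 epithelial regulators and surface proteins 0 changed (list median -0.05); St14, the membrane protease matriptase, had the smallest p (log2 0.70, SE 0.34, adjusted p = 0.160). Of 12 mesenchymal and EMT genes 10 were tested and 1 rose, Fn1, which encodes fibronectin (log2 1.12, SE 0.34, adjusted p = 0.0438). Fn1 was at 29.6 to 37.9 CPM in the controls, 32.6 CPM in library 2, 106 and 114 CPM in libraries 4 and 5 and 61.5 and 54.8 CPM in libraries 6 and 7. The 12 mesenchymal genes summed to 353 and 363 CPM in libraries 6 and 7, 130 and 139 CPM in libraries 4 and 5 and 45.6 to 104 CPM elsewhere. Fn1 alone made up 106 and 114 CPM of the sums in libraries 4 and 5. Vim, Cdh2, Cdh11, Snai1, Snai2, Zeb1, Zeb2 and Prrx1 were highest in libraries 6 and 7. Twist1 was lowest there, at 0.860 and 0.955 CPM beside 0.968 to 3.34 CPM elsewhere. Cdh2, the N-cadherin gene, chosen after its values were seen as the counterpart of Cdh1, was at 44.6 and 55.2 CPM in libraries 6 and 7 and at 0.0587 to 2.01 CPM elsewhere (log2 4.96, SE 1.67, adjusted p = 0.0590). Together 8 of the 74 related genes tested changed (10.8%), beside the 14.7% given above for all genes. It was 3 with libraries 4 and 5 summed, 13 without libraries 6 and 7, 13 without libraries 4 and 5, and 0 when the Cep120 line was fitted alone. It ran from 0 to 28 when libraries were left out singly. It was 0 without each Cep120-line control in turn and without library 7. Without library 6 it was 1, without library 5 it was 2 and without library 2 it was 28. These counts from other fits are given without the share of all genes called in the same fit. They therefore do not set the related genes apart from other genes.

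**Figure D5:**
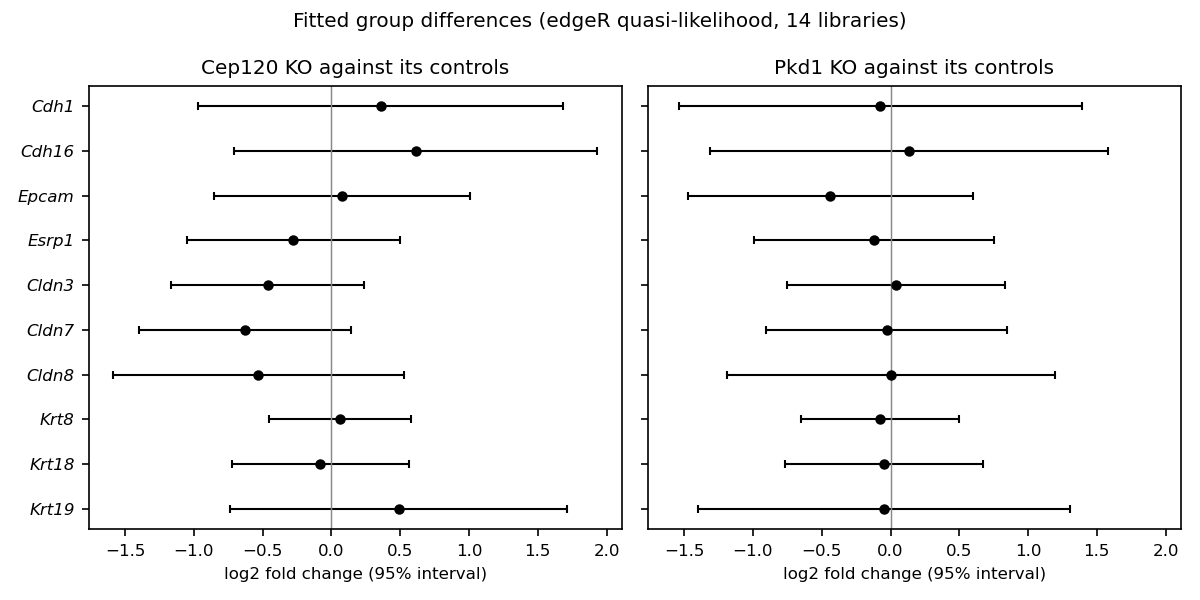
Fitted log2 fold change (points) with 95% interval (bars) of each of the 10 genes in the Cep120 KO and the Pkd1 KO contrast, from edgeR's quasi-likelihood model of 14 libraries. Every interval includes 0, from the narrowest for Krt8 to the widest for Cdh1.

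The second comparison set Pkd1 KO against the controls of its line. None of the 10 genes changed, as was the case for 0% of all genes (0 of 16876 by edgeR, 259 at an unadjusted p under 0.05). The 10 fold changes ran from -0.44 (Epcam) to 0.13 (Cdh16) on the log2 scale with a median of -0.05, beside -0.01 for all genes. Epcam was at 233, 200 and 203 CPM in the Pkd1-line controls and at 138, 157 and 175 CPM in Pkd1 KO. It was the only gene of the 10 whose groups did not overlap, beside 11.1% of all genes, 6.19% in this direction (log2 -0.44, SE 0.48, 95% interval -1.48 to 0.60, adjusted p = 1). Cdh1 was at 173, 152 and 151 CPM in these controls and at 173, 141 and 138 CPM in Pkd1 KO, so its groups overlapped. Cldn8 was at 396, 498 and 340 CPM and at 403, 343 and 493 CPM, with nearly the same range (log2 0.01, SE 0.56, 95% interval -1.19 to 1.20). The intervals did not exclude changes of 1 log2 unit for Cdh1, Cdh16, Epcam, Cldn8 and Krt19; the spread behind them is estimated over all 4 groups. Of the 74 related genes 0 changed.

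The third comparison asked whether the Cep120 KO and Pkd1 KO effects differed. They did so for 0 of the 10 genes and 0% of all genes (0 by edgeR, 3436 at an unadjusted p under 0.05), with a smallest adjusted p among the 10 of 0.554, for Cldn7. In the fourth, the control groups were set against each other. Of the 10 genes 0 changed, beside 0.124% of all genes. Epcam (117 to 156 CPM against 200 to 233 CPM) and Cdh1 (107 to 146 CPM against 151 to 173 CPM) were lower in the Cep120-line controls without overlap, and Krt18 (589 to 630 CPM against 496 to 565 CPM) was higher without overlap, beside 21.5% of all genes whose control groups did not overlap (11.5% higher and 9.99% lower). Epcam differed most of the 10 (log2 -0.66, SE 0.49, adjusted p = 0.998) and passed the test when the 6 controls were fitted alone (log2 -0.67, adjusted p = 0.0372). The position of Epcam relative to controls depended on the line: libraries 2, 4 and 5 were above the Cep120-line controls, but at 188 to 218 CPM they overlapped the Pkd1-line controls. Cldn4, a claudin outside the 10 genes and named after its values were seen, separated the lines further. It was at 877, 851 and 1067 CPM in the Cep120-line controls, 149, 116 and 118 CPM in the Pkd1-line controls, 127, 98.5 and 212 CPM in Pkd1 KO, 1336, 1882 and 1856 CPM in libraries 2, 4 and 5, and 152 and 94.6 CPM in libraries 6 and 7. The control lines differed for Cldn4 by 2.87 on the log2 scale (SE 0.87, adjusted p = 0.611).

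Transcript-level counts could be followed for 7 of the 10 genes, whose listed transcripts summed to the gene count. Cldn3, Cldn8, Krt8 and Krt18 had 1 listed transcript each. Cdh16 came mainly from Cdh16-204, with 81.2 to 92.5% of the gene's counts over the 14 libraries, so the same transcript carried the high values of libraries 4 and 5. Krt19 came from the coding Krt19-201 (74.0 to 87.1%) and the processed transcript Krt19-203 (12.9 to 26.0%). For Epcam, the coding Epcam-204 made up 87.7 to 97.9%. Its noncoding Epcam-203 made up 5.92 to 9.12% in Pkd1 KO, 5.19 to 6.29% in the Pkd1-line controls, 3.34 to 4.05% in the Cep120-line controls and 1.25 to 5.37% under the Cep120 KO label, with the Pkd1 groups overlapping. No test was run on these shares.

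For each of the 10 genes the most similar other gene over the 14 libraries was found among 9631 genes, as the smallest root mean square difference of centred log2 CPM. It was Manba for Cdh1 (0.271), Lrp4 for Cdh16 (0.277), Tbx3 for Epcam (0.201), Jade3 for Esrp1 (0.119), Zfp317 for Cldn3 (0.0914), Alyref for Cldn7 (0.134), Wls for Cldn8 (0.136), Fer for Krt8 (0.111), Pld3 for Krt18 (0.111) and Gata2 for Krt19 (0.275). The cadherins and Krt19 had the largest differences from their matches. This measure grows with a gene's own spread, which was 0.977, 0.872 and 0.817 for Cdh1, Cdh16 and Krt19 (SD of log2 CPM) and 0.306 for Krt8. Its order therefore does not rank how closely the patterns match. Within the 10, Cdh16 and Krt19 were closest to each other (0.242), closer than either was to its match outside the 10. Cdh1 was closest to Cdh16 (0.392), Epcam to Esrp1 (0.268), Esrp1 to Cldn3 (0.197) and Cldn8 to Cldn7 (0.278). These profiles share the 4 libraries that stand apart, which set most of their spread.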

How the data were processed

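Bulk RNA-seq was deposited for 14 libraries of GFP-sorted ureteric bud cells, from cDNA of the SMARTer Ultra Low kit per the labels' protocols; it does not mark the strand. The values tested are estimated (expected) counts per gene, deposited by the authors unnormalized and rounded here to whole numbers (88.4 to 91.6% of values in a library were already whole). The authors also deposited TPM per gene, used for levels, log2 CPM values with a small constant added, used in an alternative test, and estimated counts per transcript. DRAGEN and mm9 appear in the submitters' processing notes, without a version or a stated use. Which annotation was used and how multi-mapping reads were handled is not given in the sources used here. Gene positions and lengths came from GENCODE M21 (GRCm38), in which 55141 of 55487 genes were found after 287 repeated lines were dropped, and promoters from RefSeq (GRCm38.p6), which held 5 of the 10 genes.

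Tests used R 4.3.3, edgeR 4.0.16 (filterByExpr at a minimum count of 10, TMM, quasi-likelihood test, 4 group means, 10 residual degrees of freedom) with Benjamini-Hochberg adjustment over 16876 genes and a threshold of 0.05. Groups came from titles and genotype labels. Intervals of fold changes are 95%. The procedure was tested on simulated data. Alternatives were RLE size factors, no filter, separate fits, DESeq2 1.42.0, limma 3.58.1 (voom with sample weights, and trend), libraries left out, libraries 4 and 5 summed, a replicate block and, added after seeing the data, length and GC offsets. Named related genes are up to 3 called genes of each list with the smallest adjusted p in the Cep120 KO contrast, or else its gene of smallest p. Similar genes were sought above a mean CPM of 5. The 10 genes and all lists were chosen with earlier results of these data known. Replicate numbers did not pair libraries: same-numbered Pkd1 KO and control libraries had correlations of -0.05, -0.03 and -0.12.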

Additional observations from a re-analysis of the deposited data

Results flagged for a closer look

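Among the 5 libraries labelled Cep120 KO, 21 genes (the 10 genes, the related genes named and Cldn4) were checked for 1 library far from the others. Afdn, the afadin gene, was the only one: library 2, at 10.6 CPM, lay below the other 4 (27.0 to 32.1 CPM) by a gap of 0.764 of the whole range, above Dixon's 95% critical value of 0.71. Chance alone marks about 1 in 20 groups. None of the 10 junction and keratin genes was marked. The control libraries of the line, at 8.47 to 11.5 CPM, held the value of library 2.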

How the results depend on the processing

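In the Cep120 KO contrast 0 of the 10 genes changed with RLE factors, no filter, a separate fit, DESeq2, limma-trend, libraries 4 and 5 summed, library 2 alone, length and GC offsets and each library left out (0 to 0). limma-voom called 6 (Cdh1 1.15, Cdh16 1.45, Epcam 0.55, Krt8 0.51, Krt18 0.44 and Krt19 1.26, all log2; Esrp1 turned to 0.21), and called 2 in the difference between the effects. Without libraries 6 and 7, 1 was called (Epcam 0.57), and Esrp1 (0.17), Cldn8 (0.032) and Krt18 (0.28) turned. Without libraries 4 and 5, 2 were called (Cdh16 -1.01 and Krt18 -0.67), and Cdh1 (-1.06), Epcam (-0.42), Krt8 (-0.38) and Krt19 (-0.88) turned. With library 2 alone, assumed to vary like the other groups, Cdh1 (-0.28), Cdh16 (-0.48), Esrp1 (0.00027), Cldn3 (0.066), Cldn7 (0.027), Cldn8 (0.22), Krt8 (-0.39) and Krt19 (-0.36) turned. With libraries 4 and 5 summed, Cdh1 (-0.016), Epcam (-0.080) and Krt8 (-0.085) turned, with length and GC offsets Cdh1 (-0.087), Epcam (-0.047) and Krt8 (-0.37), and in limma-trend, whose median over all genes was 0.45 in place of 0.12, Krt18 (0.17). Leaving out single libraries turned Cdh1 (-0.075 to 0.64), Epcam (-0.13 to 0.33), Krt8 (-0.10 to 0.18) and Krt18 (-0.29 to 0.076). The share of all genes called in each of these fits is not given here, so the counts called do not set the 10 genes apart.

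In the Pkd1 contrast 0 of the 10 genes and 0 of the related genes changed in any fit. Values near 0 turned: Cldn8 without a filter (-0.000745), in limma-voom (-0.070) and in limma-trend (-0.030), Krt19 in limma-voom (0.12), and with offsets Cldn7 (0.0077) and Krt18 (0.0054). Leaving out single libraries gave Cldn7 -0.065 to 0.041, Cldn8 -0.14 to 0.17, Krt18 -0.12 to 0.033 and Krt19 -0.24 to 0.28. With the replicate block, 0 changed in the Pkd1 contrast, where Krt19 turned (0.0080), and 0 between the control lines. No paired analysis was possible for Cep120 because its KO libraries and controls share only the number 2. Between the control lines a separate fit called 1 gene (Epcam).

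Related genes called in the Cep120 KO contrast, 8 in all, were 0 in a separate fit and with library 2 alone, 19 by DESeq2, 38 by limma-voom, 3 with libraries 4 and 5 summed, 13 without libraries 6 and 7, 13 without libraries 4 and 5, 4 with offsets and 0 to 28 with single libraries left out. For the related genes too, the share of all genes called in each of these other fits is not given here. These counts therefore do not set the related genes apart. The cause of the differences between fits was not tested. The precision is limited by the number of libraries and by the spread under the Cep120 KO label.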

Other observations

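A few related genes, chosen after their values were seen, show how far the rest of the junction followed the 10 genes. Ocln, which encodes occludin, a tight junction strand protein, was at 19.2 and 29.9 CPM in libraries 6 and 7 and at 140 to 232 CPM in the 12 others, so it was placed like the claudins, and libraries 4 and 5 (159 and 167 CPM) lay inside the range of the Cep120-line controls. Grhl2, a transcription factor known to drive Cdh1 and claudin genes in epithelia, was at 6.84 and 10.1 CPM in libraries 6 and 7, at 48.1 and 42.5 CPM in libraries 4 and 5 and at 17.3 to 30.2 CPM elsewhere. Ctnnb1, which encodes beta-catenin, the partner of E-cadherin at the membrane and a Wnt effector, stayed between 262 and 329 CPM in all 14 libraries. Zeb1, a repressor of Cdh1, was at 39.5 and 30.1 CPM in libraries 6 and 7 and at 0 to 1.40 CPM elsewhere.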
